A study of Mus musculus with 4 samples.

Results

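The 5 rows described here are the ribosomal RNA precursor Rn45s, the structural RNAs Rmrp, Rpph1 and Vaultrc5, and the protein-coding gene Lars2. They were taken by symbol from a table of 24016 RefSeq rows measured by RNA sequencing in mouse colon, and were chosen by the measured counts themselves, which differed between the same libraries in a similar way. All values given for them are therefore descriptions. The table holds 1 library for each of 4 groups of germ-free C57BL/6 mice aged 7 weeks, which carry no microbes of their own. The first group was untreated, and the others received an oral gavage of phosphate-buffered saline (PBS), of Escherichia coli or of Lactobacillus rhamnosus GG (LGG), a probiotic strain. The labels give the bacteria at 2000000000 cfu/mL, groups of 4 gavaged mice, and 4 cm of colon taken 4 h after gavage. Pooling of RNA between mice is not described there, nor is the time at which untreated tissue was taken. No difference below has a replicate check.

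Ribosomal RNA is copied by RNA polymerase I as a long precursor, Rn45s, which is then cut into the RNAs of the small and large ribosomal subunits. Since the mature RNAs are pieces of the precursor, counts on the Rn45s row were not divided between mature RNA and precursor. Rmrp is the RNA of RNase MRP, an enzyme that cuts this precursor, and Rpph1 is the RNA of RNase P, which trims the leader from precursor tRNAs. Vaultrc5 is a vault RNA, a component of large cytoplasmic particles called vaults. RNA polymerase III makes Rmrp, Rpph1 and vault RNA, whereas Lars2, the enzyme that loads leucine onto mitochondrial tRNA, comes from a polymerase II gene. Mature ribosomal RNA and polymerase III transcripts carry no poly(A) tail. The library kit named in the labels, TruSeq RNA v2, enriches RNA with a poly(A) tail, so these RNA classes are not its target.

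In the deposited table, which uses the mouse build mm9, Rn45s (NR_046233) is listed on chromosome 17 from 39979942 to 39985774. Lars2 (NM_153168) is on chromosome 9 from 123276058 to 123371782, and its listed transcript length is 3858 bases. Rmrp (NR_001460) is on chromosome 4 from 43505657 to 43505931, and Rpph1 (NR_002142) is on chromosome 14 from 51427122 to 51427446.  Rmrp and Rpph1 are each a single non-coding RNA, with listed lengths of 274 and 324 bases. Each of the 5 rows is listed with 1 copy. Ribosomal RNA genes are repeated in the mouse genome, and the placement of reads with several possible positions is not stated in the labels.

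The Rmrp and Rpph1 RNAs are printed because their counts ran in parallel and it matters whether their reads could be confused. The sequences are those of GENCODE M21 (build GRCm38, minus strand), Rmrp whole at chr4:43492788-43493058 and the first 300 bases of Rpph1 at chr14:50807468-50807767. Capitals mark the longest run of identical bases that they share, which is 9 bases long.
Rmrp: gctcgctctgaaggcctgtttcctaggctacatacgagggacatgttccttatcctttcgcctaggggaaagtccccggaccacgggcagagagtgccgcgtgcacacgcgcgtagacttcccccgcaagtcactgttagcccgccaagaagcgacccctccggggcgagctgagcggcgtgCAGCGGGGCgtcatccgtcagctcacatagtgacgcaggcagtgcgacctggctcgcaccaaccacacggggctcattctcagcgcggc
Rpph1, first 300 bases: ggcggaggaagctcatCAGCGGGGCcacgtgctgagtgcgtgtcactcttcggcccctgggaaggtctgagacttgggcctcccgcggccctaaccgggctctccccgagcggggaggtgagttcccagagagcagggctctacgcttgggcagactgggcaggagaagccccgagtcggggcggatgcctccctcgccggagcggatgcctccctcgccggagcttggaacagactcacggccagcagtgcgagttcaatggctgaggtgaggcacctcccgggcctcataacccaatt
The whole RNAs are 271 and 319 bases long with a GC content of 64.2% and 67.1%.

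Both genes share the stretch in front of them with a protein-coding gene that runs the other way. In the table Rmrp begins 306 bases from Ccdc107, and Rpph1 begins 175 bases from Parp2, which encodes a poly(ADP-ribose) polymerase of DNA repair. The RefSeq promoter windows of these neighbours (GRCm38.p6, plus strand, 250 bases before to 50 bases after the start) are printed because they hold bases that lie between each pair. The Parp2 window spans the whole gap and 106 bases of Rpph1, whereas the Ccdc107 window stops short of Rmrp, so the bases directly upstream of Rmrp are not shown. The first is chr4:43493115-43493414 and the second chr14:50807666-50807965. Capitals mark the octamer ATTTGCAT or its reverse complement ATGCAAAT, a sequence known from the distal element of polymerase III promoters that lie outside the gene.
Ccdc107 window, beside Rmrp: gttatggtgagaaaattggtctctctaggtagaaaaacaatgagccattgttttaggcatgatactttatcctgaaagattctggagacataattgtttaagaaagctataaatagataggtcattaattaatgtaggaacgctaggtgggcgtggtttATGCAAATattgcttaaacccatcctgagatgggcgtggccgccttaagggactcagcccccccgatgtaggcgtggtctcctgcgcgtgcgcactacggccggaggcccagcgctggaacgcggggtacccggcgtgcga
Parp2 window, beside Rpph1: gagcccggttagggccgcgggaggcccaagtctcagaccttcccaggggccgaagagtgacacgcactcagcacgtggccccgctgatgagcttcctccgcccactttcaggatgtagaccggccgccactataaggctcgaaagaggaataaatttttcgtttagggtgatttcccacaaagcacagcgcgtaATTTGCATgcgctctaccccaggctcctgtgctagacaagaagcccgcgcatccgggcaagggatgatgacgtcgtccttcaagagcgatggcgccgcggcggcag
The octamer begins 215 bases upstream of the RefSeq start of Rmrp and 89 bases upstream of that of Rpph1. Measured from the other side, it ends 83 bases upstream of the Ccdc107 start and 48 bases upstream of the Parp2 start. Of all 32851 promoter windows in the RefSeq table, 1.74% hold it on either strand. The 1 window listed for Lars2 does not hold these letters. A match describes the letters and does not show that a factor binds there.

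The 4 libraries differed in depth, with 16289580.0 counts in the PBS library and 27220697 to 29899371 in the others. Markers of colon epithelium were all detected, 10 of 10 in each library, with summed levels of 22317 to 25487 CPM (counts per 1000000, with library sizes scaled by the trimmed mean of M-values, TMM). Of 14 markers of pancreatic acinar cells, which are no part of the colon, 13 were detected in each library and Amy2a5 was at 0 in all. Their summed level was 123 CPM untreated, 220 with PBS, 328 with E. coli and 229 with LGG. Plasma cell markers summed to 432, 467, 452 and 493 CPM in the same order and adipocyte markers to 157, 117, 76.6 and 159 CPM. Mesothelial markers summed to 2815, 3389, 3304 and 3571 CPM. Smooth muscle markers summed to 12044, 11150, 10166 and 11136 CPM, and erythroid markers to 30.3, 15.1, 17.6 and 21.4 CPM. The mesothelial sums were higher after each gavage while most of the 6 markers were lower, since a sum is weighted to abundant markers. The median log2 ratio of the mesothelial markers against untreated was -0.30 after PBS, -1.47 after E. coli and -0.79 after LGG. The acinar sums likewise differed less than most single acinar markers did. Over the 13 tested, the median log2 ratio against untreated was 3.07 after PBS, 4.48 after E. coli and 3.86 after LGG. In bulk tissue, fewer cells of a type and less RNA per cell cannot be told apart.

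Rn45s was lowest in the untreated library and highest after PBS and LGG. It was counted 67350 times in the untreated library, 204442 times after PBS, 166476 times after E. coli and 338452 times after LGG. These counts correspond to 2360 CPM (95% Poisson counting interval 2342 to 2377), 12740 CPM (12684 to 12795), 5731 CPM (5704 to 5759) and 11566 CPM (11527 to 11605). The intervals, here and below, cover counting error only, because PCR copies without molecular identifiers are not independent molecules. No pair of libraries overlapped, and the highest was 5.40 times the lowest.

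Lars2 followed the same course with its peak in the PBS library. Its level was 487 CPM untreated (478 to 495), 2397 CPM with PBS (2374 to 2422), 1085 CPM with E. coli (1073 to 1097) and 1733 CPM with LGG (1718 to 1748), from 13888, 38474, 31522 and 50721 counts. The counting intervals were again separate, and the ratio of highest to lowest was 4.93. LGG stood further below PBS for Lars2 than for Rn45s.

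The 3 small RNAs were rare, and all were highest after LGG. Rmrp was at 1.05 CPM in the untreated library (0.709 to 1.5, from 30 counts), 3.86 after PBS (2.96 to 4.95, 62 counts), 2.20 after E. coli (1.70 to 2.81, 64 counts) and 6.63 after LGG (5.73 to 7.63, 194 counts). No pair of Rmrp intervals overlapped. Rpph1 was at 2.17 CPM (1.67 to 2.78, 62 counts), 7.60 (6.31 to 9.08, 122 counts), 4.2 (3.49 to 5.01, 122 counts) and 9.23 (8.16 to 10.4, 270 counts) in the same order. For Rpph1 the PBS and LGG intervals overlapped, and both lay above those of the E. coli and untreated libraries. Vaultrc5 was at 0.315 CPM (0.144 to 0.599, 9 counts), 1.74 (1.16 to 2.52, 28 counts), 0.689 (0.421 to 1.06, 20 counts) and 2.02 (1.53 to 2.60, 59 counts). Vaultrc5 (NR_027885) is listed on chromosome 18 from 36961417 to 36961761 of mm9. Its PBS and LGG intervals overlapped, as did its untreated and E. coli intervals, and Vaultrc5 reached a mean of 1.19 CPM only through the PBS and LGG libraries.

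**Figure D1:**
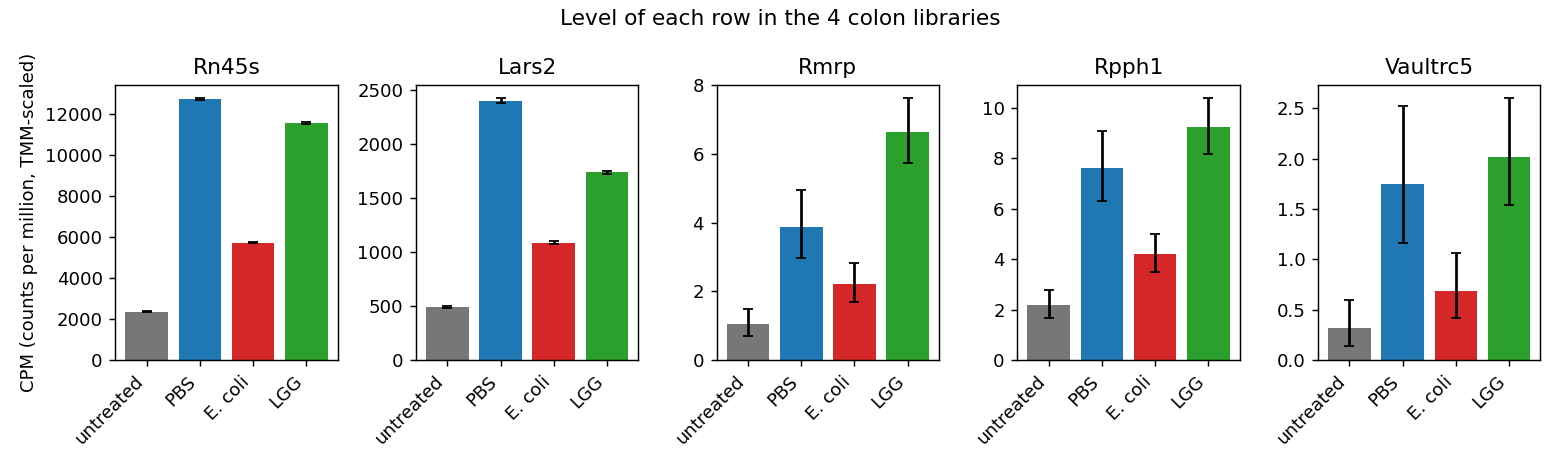
Level in CPM (TMM-scaled, linear axis from 0) of each of the 5 rows in the untreated, PBS, E. coli and LGG libraries, 1 library per bar, with 95% Poisson counting intervals. In every panel the untreated bar is lowest and the E. coli bar second lowest, and Rn45s runs from 2360 to 12740 CPM.

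All 5 rows thus had the untreated library lowest, E. coli second lowest, and PBS and LGG above both. Of the 14450 rows with a mean of at least 1 CPM, 34.2% were lowest in the untreated library and 9.49% had this order of libraries. The order itself was therefore common, and the rows stood out by their size. A ratio of highest to lowest library of at least 4.25, the smallest among the 5 rows (Rpph1), was reached by 30 of 14450 rows, or 0.208%, where the median row had a ratio of 1.19. A row without counts in a library was given no ratio and is not among these 30. These shares give the setting only, since the rows were grouped with such values known.

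Per kilobase of listed length, Rn45s was by far the most abundant of the 5, at 405 CPM per kb untreated and 2184 with PBS. Lars2 followed at 126 and 621 CPM per kb. Rpph1 was at 6.70 and 23.5, Rmrp at 3.84 and 14.1 and Vaultrc5 at 0.917 and 5.07 CPM per kb. This order held in each of the 4 libraries.

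PBS against untreated sets the gavage with vehicle beside no gavage. The size rule used below asks for a mean of at least 1 CPM, a 2-fold difference (a log2 ratio of 1 or more in either direction) and a 95% counting interval that excludes 0. All 5 rows were higher after PBS by this rule, beside 0.664% of all rows tested; 0.782% were lower and 1.45% passed in either direction. These ratios were among the values that chose the rows, so nothing is read from the count. The log2 ratio was 2.43 (2.42 to 2.45) for Rn45s, 2.30 (2.27 to 2.33) for Lars2, 1.86 (1.23 to 2.56) for Rmrp, 1.80 (1.35 to 2.27) for Rpph1 and 2.40 (1.34 to 3.74) for Vaultrc5. Their median was 2.30, where that of all rows was 0.00145. The 3 small RNAs had intervals that overlapped one another and, except for Rpph1, included the Rn45s value. From the highest ratio downward, Rn45s was at rank 9 and Rpph1 at rank 17 of the 14450 rows. In the same pair 11 of 13 acinar markers tested were higher past the rule, with a median of 3.07, and so were 2 of 6 plasma cell markers, while 1 of 6 mesothelial and 1 of 4 erythroid markers were lower. In E. coli against PBS, 12 of 13 acinar markers were higher, with a median of 1.74. The part of these cells in the results was not tested.

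**Figure D2:**
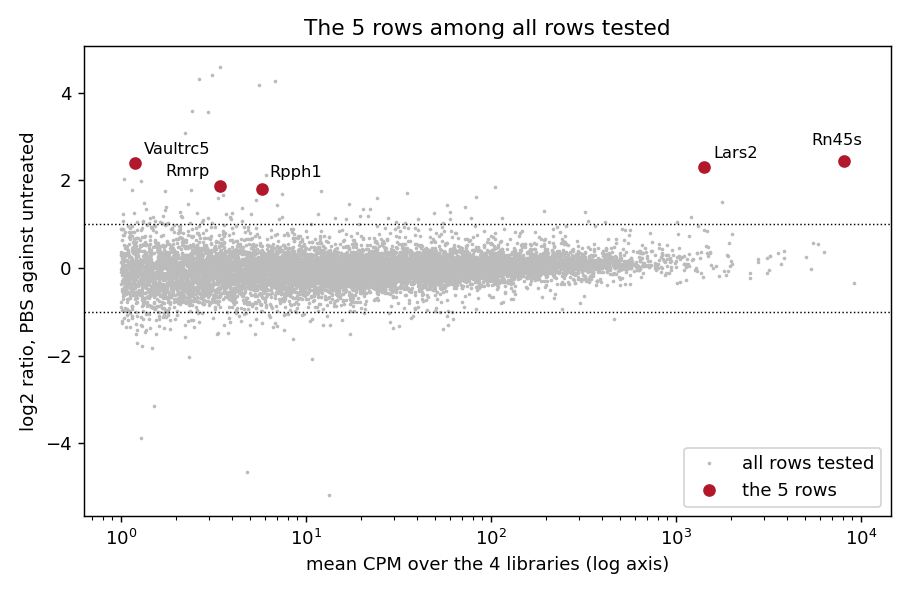
Log2 ratio of PBS against untreated (vertical) by mean CPM over the 4 libraries (horizontal, log axis) for the 14450 rows tested, each a grey point, with the 5 rows in red and dotted lines at a 2-fold difference. The 5 rows lie between 1.80 and 2.43, at both the low and the high end of abundance.

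LGG against untreated gave a similar picture, and the pair shares the untreated library with the one above. All 5 rows were higher past the rule, beside 0.457% of rows tested (0.588% lower, 1.04% in either direction). Ratios were 2.29 for Rn45s (2.28 to 2.31), 1.83 for Lars2 (1.81 to 1.86), 2.63 for Rmrp (2.10 to 3.26), 2.08 for Rpph1 (1.68 to 2.51) and 2.60 for Vaultrc5 (1.66 to 3.87). E. coli against untreated was smaller. There Rn45s, Lars2 and Rmrp were past the rule, at 1.28 (1.27 to 1.29), 1.16 (1.13 to 1.19) and 1.05 (0.42 to 1.74), beside 0.824% of rows called higher (1.53% lower, 2.35% in either direction). Rmrp lost this call with library totals in place of TMM, at 0.97. Rpph1 was at 0.945 (0.50 to 1.42) and Vaultrc5 at 1.08 with an interval of -0.0733 to 2.45, so neither passed. Acinar markers were higher past the rule in both pairs, 12 of 13 with a median of 3.86 for LGG and 12 of 13 with a median of 4.48 for E. coli. Plasma cell markers were higher for 1 of 6 and 2 of 6. Mesothelial markers were lower for 2 of 6 after LGG (median -0.79) and for 5 of 6 after E. coli (median -1.47), and adipocyte markers for 5 of 7 after E. coli (median -1.13). The part of these cells in the results was not tested.

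E. coli against PBS compared the bacterium with its vehicle. Rn45s was lower after E. coli, at -1.15 (-1.16 to -1.14), Lars2 at -1.14 (-1.17 to -1.12) and Vaultrc5 at -1.32 (-2.25 to -0.46), and these 3 were past the rule beside 0.242% of rows called lower (0.173% higher, 0.415% in either direction). Rmrp was at -0.80 (-1.34 to -0.28) and Rpph1 at -0.85 (-1.23 to -0.48), with intervals that excluded 0 but a size below 2-fold. Rn45s and Lars2 therefore differed by about the same factor in this pair, 2.22-fold and 2.21-fold. In this pair 5 of 6 mesothelial markers, with a median of -1.30, and 3 of 7 adipocyte markers, with a median of -0.78, were also lower past the rule. Their part in the result was not tested.

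LGG against PBS gave no call among the 5 rows, where 0.277% of rows tested were past the rule in either direction, 0.18% higher and 0.0969% lower. The rows went in both directions here. Rn45s was at -0.14 (-0.15 to -0.13) and Lars2 at -0.47 (-0.49 to -0.45), whereas Rmrp was at 0.78 (0.36 to 1.22). Rpph1 at 0.28 (-0.03 to 0.60) and Vaultrc5 at 0.21 (-0.46 to 0.91) had intervals that included 0. Rmrp was thus the only one of the 5 with an interval above 0. In this pair 6 of 13 acinar markers were higher past the rule (median 0.99) and 1 of 6 mesothelial markers was lower.

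LGG against E. coli set the bacteria side by side. Rn45s, Rmrp, Rpph1 and Vaultrc5 were higher after LGG past the rule, beside 0.263% of rows called higher (0.0969% lower, 0.36% in either direction). Their ratios were 1.01 (1.00 to 1.02), 1.58 (1.17 to 2.02), 1.13 (0.82 to 1.46) and 1.52 (0.80 to 2.36). Rn45s lay at the threshold and was at 0.998, below it, with library totals. Lars2 was at 0.676 (0.66 to 0.70) and did not pass. Of adipocyte markers 5 of 7 were higher in this pair, with a median of 1.32, and 3 of 13 acinar markers were lower, with a median of -0.79. Their part was not tested.

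The genes beside the small RNAs differed far less. Ccdc107 was at 45.7 CPM untreated, 33.4 with PBS, 33.7 with E. coli and 37.7 with LGG, so that it was lower, not higher, after PBS (-0.45, -0.60 to -0.31). Parp2 stayed between 30.3 and 31.6 CPM, Arhgef39, which lies 3085 bases from Rmrp, between 27.5 and 28.7 CPM, and Zmat2, 2103 bases from Vaultrc5, between 75.3 and 86.1 CPM. None of these 4 neighbours passed the size rule in any of the 6 pairs, where 0.277% to 2.35% of all rows tested did. With such shares, nothing is read from the missing calls of 4 rows.

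Counted within a library, which needs no scaling, Rpph1 gave 71.6 counts per 1000 Parp2 counts in the untreated library (54.4 to 92.7), 248 after PBS (202 to 304), 133 after E. coli (109 to 161) and 297 after LGG (259 to 341). Rmrp gave 23.0 per 1000 Ccdc107 counts (15.5 to 33.0), then 116 (87.4 to 151), 65.4 (49.9 to 84.2) and 176 (150 to 205). The RNA on one side of each shared stretch differed severalfold between libraries while the gene on the other side differed by at most 1.37-fold. Rmrp and Rpph1 were chosen for such differences and the neighbours were not, so nothing is read from this contrast.

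**Figure D3:**
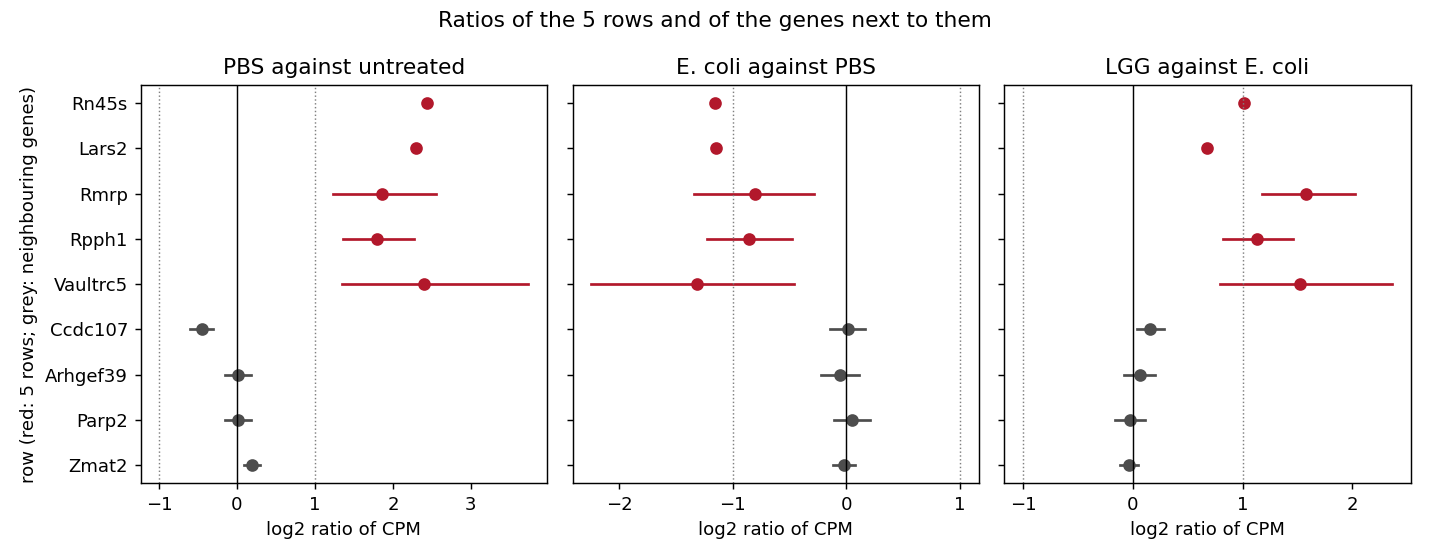
Log2 ratios with 95% counting intervals (horizontal lines) of the 5 rows (red) and the 4 neighbouring genes (grey) in 3 pairs of libraries named above the panels, with dotted lines at a 2-fold difference. The red points lie between 1.80 and 2.43 in the first panel, where the grey points lie between -0.45 and 0.19.

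Ratios between the 5 rows within a library were steadier than their levels, which follows from choosing rows that differed in a similar way. Lars2 had 206 counts per 1000 Rn45s counts in the untreated library (202 to 210), 188 after PBS (186 to 190), 189 after E. coli (187 to 192) and 150 after LGG (148 to 151). PBS and E. coli did not differ beyond counting error, and LGG was lowest. Rmrp had 0.484 counts per Rpph1 count in the untreated library (0.302 to 0.760), 0.508 after PBS (0.368 to 0.695), 0.525 after E. coli (0.381 to 0.716) and 0.719 after LGG (0.594 to 0.867), and these intervals overlapped throughout. Per 1000 Rn45s counts, Rmrp ran from 0.303 (0.233 to 0.389) after PBS to 0.573 (0.495 to 0.660) after LGG, whose intervals were separate. Vaultrc5 ran from 0.120 to 0.174 with overlapping intervals in all libraries.

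Lars2 was also far above the other genes of its kind. The other 16 mitochondrial aminoacyl-tRNA synthetases, which load the remaining amino acids in mitochondria, had a median of 6.84 CPM per kb untreated, 6.74 with PBS, 6.77 with E. coli and 6.68 with LGG. Their highest member was Iars2, the isoleucine enzyme, at 28.7 to 31.5 CPM per kb. Lars2 stood at 126, 621, 281 and 449 CPM per kb in the same libraries, 18.4, 92.3, 41.6 and 67.3 times the median of the others. Against Lars, which loads leucine in the cytosol, it was 8.65-fold higher in the untreated and 41.6-fold higher in the PBS library. Of the 17 mitochondrial synthetases, only Lars2 passed the size rule in any of the 6 pairs, where 0.277% to 2.35% of all rows tested did. Lars2 was chosen for its differences, so nothing is read from this count. After PBS against untreated the list had a median of 0.10, Nars2 was at 0.26 and Cars2 at 0.21. The 20 cytosolic synthetases had no call in that pair, beside 1.45% of all rows tested, with a median of 0.12 and Yars at 0.39.

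**Figure D4:**
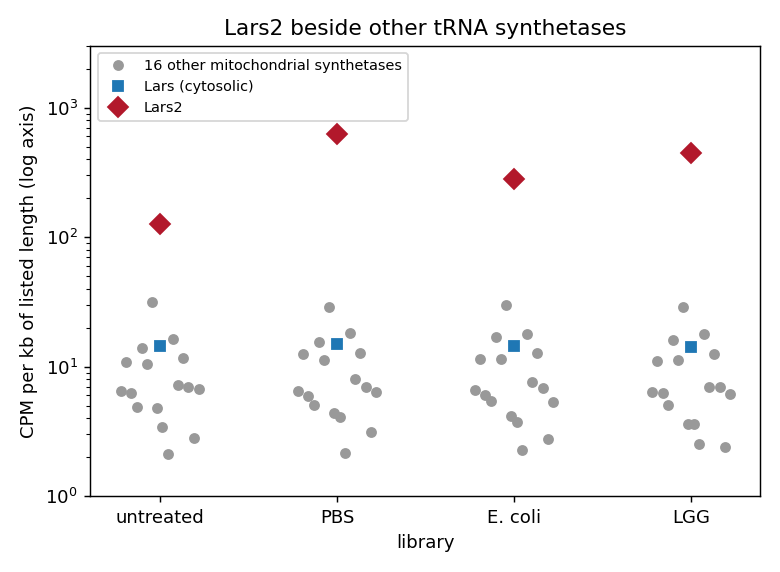
CPM per kb of listed length (log axis) of Lars2 (red diamonds), the 16 other mitochondrial tRNA synthetases (grey circles) and the cytosolic Lars (blue squares) in each of the 4 libraries. Lars2 moves from 126 to 621 CPM per kb while the median of the other 16 stays between 6.68 and 6.84.

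Runs of bases shared with annotated ribosomal transcripts were looked for in Lars2. The 9 Lars2 transcripts of GENCODE M21, some of them with retained introns, were compared on both strands with 361 transcripts that are typed as cytosolic or mitochondrial ribosomal RNA or lie within 5000 bases of the ribosomal transcript CT010467.1 on chromosome 17. The longest run of identical bases was 16, in a transcript with a retained intron, and for the main coding transcript of 3894 bases it was 14. Introns that no transcript retains were not searched, and these are GRCm38 transcripts while the counts were made on mm9. No whole Rn45s sequence, listed at 5832 bases, was among the transcripts compared, the longest of which had 3329 bases. The result therefore does not cover Rn45s, and whether ribosomal reads were placed on the Lars2 row was not tested.

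The rows whose profile over the 4 libraries was most like Rn45s were, in order, Lars2, Vaultrc5, Rpph1, Ccl12 and Rmrp. Likeness was the root mean square distance between log2 CPM profiles centred on their own mean. It was 0.171 for Lars2 and 0.333 for Rmrp, where the median over the rows tested was 0.979. For Lars2 the nearest rows were Rn45s, Chrdl2, Ccl12, Rpph1 and Ccl7. Chrdl2, an antagonist of bone morphogenetic proteins, was at 2.49, 10.97, 4.54 and 6.39 CPM in the untreated, PBS, E. coli and LGG libraries. Ccl12 and Ccl7, chemokines that attract monocytes, were rarer, with 10 to 39 counts and 20 to 44 counts per library. Distances over 4 points with such counts carry wide counting error, and they describe these libraries only. The 5 rows were chosen for similar differences between these libraries, so nothing is read from their nearness to one another. Past the size rule, 5 rows were both higher in PBS against untreated and lower in E. coli against PBS, namely Rn45s, Lars2, Vaultrc5, Chrdl2 and Krt14, the last named after its value was seen. The 2 pairs share the PBS library.

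As parts of the libraries, the 5 rows differed in weight. Rn45s held 0.247% of all counts in the untreated library (exact binomial 95% interval 0.246 to 0.249), 1.26% after PBS (1.25 to 1.26), 0.567% after E. coli (0.564 to 0.570) and 1.13% after LGG (1.13 to 1.14). It held the most counts of any row in the PBS and LGG libraries, was the fifth in the E. coli library and was at place 20 in the untreated library. Lars2 held 0.0510%, 0.236%, 0.107% and 0.170% of counts. Taking Rn45s out of the total would move every other row little, since its presence lowered them by at most -0.0182 on the log2 scale (PBS). Rmrp and Rpph1 together held 0.000338% to 0.00155% of counts. The table types 2 rows as ribosomal RNA, and the one other than Rn45s had 1 count in the LGG library and 0 in the others.

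The shares of the RNA classes with many named rows differed less. The 114 rows of small nucleolar and Cajal body RNAs, which guide the modification of ribosomal and spliceosomal RNA, held 0.00223% of counts in the untreated library and 0.00263%, 0.00250% and 0.00247% after PBS, E. coli and LGG. Relative to untreated, their share was 1.18 times after PBS, where that of Rn45s was 5.07 times and that of Rmrp and Rpph1 together 3.34 times. Snord22, the most abundant of them, was at 1.23, 2.18, 2.20 and 2.12 CPM, from 35 to 64 counts, so its E. coli value was not below PBS. The 1050 rows with microRNA names held 0.0215%, 0.0213%, 0.0221% and 0.0214%. Whether counts on these rows came from microRNAs or from longer transcripts over the same bases was not tested. The 68 rows of the histone gene clusters held 0.0271%, 0.0224%, 0.0244% and 0.0294%. Most messages of these clusters end without a poly(A) tail. This share was lowest after PBS, but it rested mostly on Hist1h2bc and Hist1h1c. Both together with 3151 and 2781 counts made up most of its 7377 counts in the untreated library. After PBS they had 1608 and 1106 of 3657 counts. Hist3h2a, the next most abundant, was higher in PBS against untreated, at 0.51 (0.28 to 0.73). The share therefore does not show how messages without a tail differed. Of other polymerase III or telomerase RNAs the table held only Terc and Rn4.5s under the names searched, with 1 to 3 counts in all per library. The 3 rows with small nuclear RNA names, Rnu11, Rnu12 and Rnu73b, had 6, 11, 7 and 11 counts together. Relative to untreated, their share was 3.06 times after PBS, 1.08 times after E. coli and 1.67 times after LGG. With so few counts the untreated and PBS intervals of this share overlapped, and nothing is read from it. No row carried a 5S ribosomal or tRNA name of the kind searched. The long nuclear RNAs Malat1 and Neat1 were at 0.33 and 0.28 in PBS against untreated. None of 9 such RNAs passed the rule in that pair, beside 1.45% of all rows tested.

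**Figure D5:**
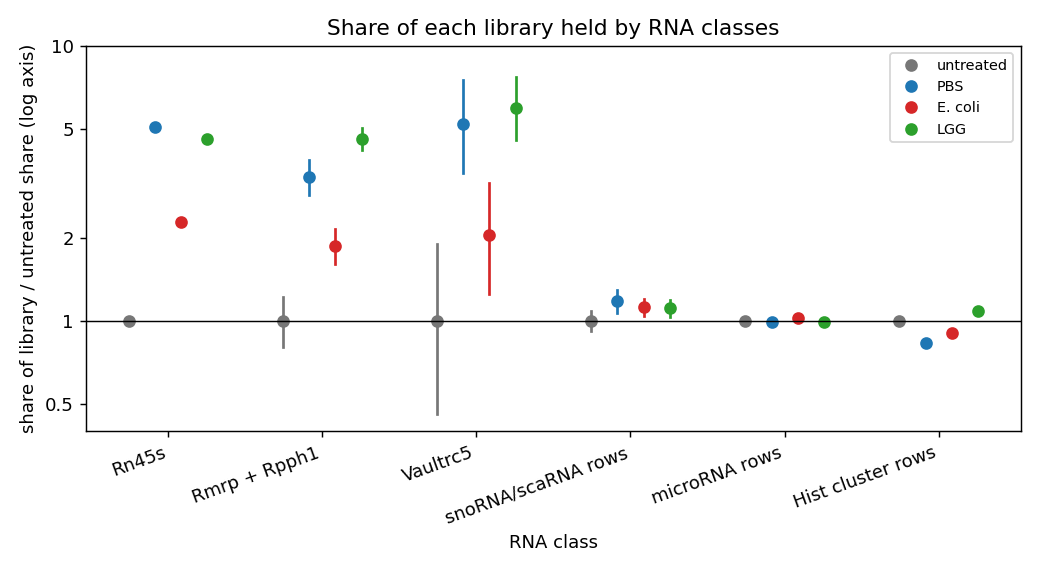
Share of each library's counts held by an RNA class, divided by its share in the untreated library (log axis), with exact binomial 95% counting intervals on each share. After PBS the value is 5.07 for Rn45s and 3.34 for Rmrp with Rpph1, whereas it is 1.18 for small nucleolar RNA rows and 0.991 for microRNA rows.

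Messages for the proteins that make or work with these RNAs were compared in the same way. In PBS against untreated none of the 11 protein subunits of RNase P and MRP passed the rule, beside 1.45% of all rows tested. With that share, nothing is read from lists of this size without a call. All 11 ratios were positive, beside 7275 of 14450 rows tested, with a median of 0.19. Rpp25 was at 0.48 (-0.25 to 1.22), Rpp38 at 0.42 and Rpp40 at 0.41, all with intervals that included 0, and Pop5 was at 0.22 (0.03 to 0.42). The 3 vault proteins had no call either. Mvp, the major vault protein, was at -0.00289 (-0.05 to 0.04), Parp4 at 0.03 and Tep1 at 0.20 (0.14 to 0.26).

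Of 15 genes of the polymerase I machinery none passed in any of the 6 pairs, where 0.277% to 2.35% of all rows did. In PBS against untreated their median was 0.0765, with Taf1b, a subunit of the promoter selectivity factor, at -0.57 (-0.94 to -0.22), Polr1a, the largest polymerase subunit, at -0.27 (-0.45 to -0.10), Polr1e at 0.32 and the activator Ubtf at 0.14. The 27 genes of the polymerase III machinery had a median of 0.0422 and no call, with Snapc5 at 0.29 (0.14 to 0.44), Polr3k at 0.24 and Brf2 at 0.22. The 35 rRNA processing genes had 32 positive ratios, a median of 0.13 and no call. Among them Utp20 was at 0.40 (0.30 to 0.50), Gar1 at 0.37, Rrp1b at 0.35, nucleolin (Ncl) at 0.18 and Npm1 at 0.18. The median of all rows tested was 0.00145 in this pair, where 7275 of 14450 ratios were positive and 1.45% of rows passed. In E. coli against PBS the medians were -0.11 for RNase P and MRP proteins and -0.06 for rRNA processing. They were -0.03 for polymerase I and 0.02 for polymerase III. Again there was no call, beside 0.415% of all rows tested.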

How the data were processed

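RNA sequencing libraries of mouse colon, 1 per group, were compared. The tools TopHat2 and HOMER and the build mm9 are named, per the submitters' processing notes, without versions or roles, and strand use is not stated. As deposited by the authors, values are expected counts per RefSeq row in steps of 0.5, not scaled between libraries. They were rounded to whole numbers. Total counts were 16289580.0 to 29899371 per library. Row symbols are the annotation text before its first separator. CPM used TMM factors (edgeR 4.0.16, R 4.3.3) of 1.05 (untreated), 0.985 (PBS), 0.989 (E. coli) and 0.979 (LGG). Log2 ratios used a prior of 0.5 counts, with exact conditional binomial 95% intervals (Clopper-Pearson), computed with scipy 1.17.1, pandas 2.3.3 and numpy 2.4.6 under Python 3.11.15. The calculation was tested on simulated data. With 1 library per group no test was made. A count of 0 allows up to 3 counts, or 0.103 to 0.187 CPM. All 6 pairs of libraries were compared, and pairs share libraries. The 5 rows, the gene lists and the markers were chosen with earlier results of these data known. Named genes were the 5 rows, genes within 5000 bases, the 5 most alike profiles, up to 3 rows per RNA class by mean CPM, and per list up to 3 with the largest PBS against untreated ratio, those past the size rule or, failing these, the 2 most abundant, immunoglobulin variable segments excepted. Sequences came from GENCODE M21 and RefSeq on GRCm38; no mm9 coordinate was converted. Of the 5 rows, only Lars2 has a promoter window of its own in the RefSeq table. The alternatives tried were DESeq2 1.42.0 size factors, scaling by library totals with and without Rn45s, upper-quartile factors, a prior of 5, a 1.5-fold threshold, no CPM filter or at least 5 CPM, unrounded values and other denominators for shares.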

Additional observations from a re-analysis of the deposited data

How the results depend on the processing

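The 30 ratios of the 5 rows were looked at 258 times under the alternatives. None changed direction and 248 kept their side of the size rule. The 1.5-fold threshold and the CPM filters leave the ratios themselves as they are, so no change of direction could arise under them. For rows that are kept, the CPM filters cannot change the side of the rule either. Another scaling moved a ratio by at most 0.0995. With library totals Rn45s in LGG against E. coli was at 0.998. In E. coli against untreated, Rmrp was at 0.971 with library totals, 0.976 with totals without Rn45s and 0.945 with a prior of 5. With a 1.5-fold threshold Rmrp (0.776) in LGG against PBS, Rmrp (-0.805) and Rpph1 (-0.853) in E. coli against PBS, Lars2 (0.676) in LGG against E. coli and Rpph1 (0.945) in E. coli against untreated passed. Unrounded values gave Vaultrc5 a ratio of 1.12 and a call in E. coli against untreated, from 9 counts in the untreated library. The interval behind that call was taken on counts rounded up. At a mean of at least 5 CPM, Rmrp and Vaultrc5 were left out.

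Numbers of rows past the rule depended on its settings. They are given first for PBS, LGG and E. coli against untreated, next for LGG and then E. coli with PBS as reference, and last for LGG with E. coli as reference. They were 209, 151, 340, 40, 60 and 52. They were 855, 760, 1199, 227, 212 and 316 at 1.5-fold, 358, 333, 597, 106, 135 and 162 without a CPM filter, and 85, 51, 152, 6, 10 and 13 at 5 CPM. With library totals, which moved the median of all rows in LGG against untreated to -0.10, the split of higher and lower rows was 73 and 156 instead of 96 and 113 for PBS, 54 and 133 instead of 66 and 85 for LGG and 90 and 281 instead of 119 and 221 for E. coli, each against untreated. Totals without Rn45s gave 74 and 149, 54 and 127, and 93 and 279.

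The share of Rn45s, taken over protein-coding (NM) rows, was 0.254%, 1.30%, 0.585% and 1.17% in the untreated, PBS, E. coli and LGG libraries, and that of Lars2 was 0.0524%, 0.245%, 0.111% and 0.176%. Over all counts without Rn45s, the share of Rn45s was 1.27%, 0.570% and 1.14% in the PBS, E. coli and LGG libraries and that of Lars2 was 0.239% and 0.172% in the PBS and LGG libraries. No paired analysis was possible because each group has 1 library and the labels give no replicate numbers. Depth limits Vaultrc5 and Rmrp most, with 9 and 30 counts in the untreated library.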
